A study of Rattus norvegicus with 12 samples.

Results

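The proteins of the mitochondrial ribosome were followed through the transcripts that encode them. A probe belonged to the set when it was not a control and its gene name in the array files began with Mrpl or Mrps and a number. This chose 90 of 45598 probes, 54 with a large subunit name (Mrpl) and 36 with a small subunit name (Mrps), and they carried 70 gene names, 41 Mrpl and 29 Mrps. Of these 70 names, 68 were tested (41 Mrpl and 27 Mrps) among 13542 genes and transcripts. The other members, Mrps10 and Mrps28, had no array on which their only probe stood well above background, so they have a bound and no difference here. Mrps36 is named Kgd4 in current annotation, which describes it as a subunit of a dehydrogenase complex, and Mrps30 and Mrps18a carry small subunit names although their proteins sit in the large subunit. All 3 were kept in the class their names give.

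The cells were N27, an immortalised rat line labelled as dopaminergic neurons. The fipronil group was exposed to 25 µM fipronil, an insecticide that blocks GABA-gated chloride channels, for 24 h (6 arrays, replicates 1, 2, 3, 4, 7 and 8). The control group is labelled as control in its titles and treatment label (6 arrays, replicates 2, 3, 5, 6, 7 and 8), and whether it received a vehicle is not said. The treatment protocol gives fipronil exposure for every sample, controls included, which goes against those labels, and the titles and treatment label were followed here. Nor do the labels say whether replicates are separate cultures, so p-values reflect only how far these samples vary, perhaps for technical reasons, and 6 arrays a group limit the precision. Slide 1 held fipronil 7 and 8 with control 2 and 3, slide 2 held the other 4 controls, and slide 3 held the other 4 fipronil arrays. Outside slide 1, treatment and slide cannot be told apart. A difference between slides 3 and 2 means fipronil on slide 3 minus control on slide 2. Between 40.8% and 45.8% of the spots of a fipronil array stood well above background, against 46.4% to 50.02% of those of a control array, so the groups did not overlap. The 75th percentile of signal, by which each array was scaled, was 111 to 140 on slide 3, 245 to 279 on slide 1 and 379 to 472 on slide 2. The part of these differences between arrays in the results was not tested. Of 10 dopaminergic neuron markers 2 were well above background on at least 6 arrays, Th on 12 and Aldh1a1 on 8, while the dopamine transporter Slc6a3 and Pitx3 were so on 0. The same held for 4 of 7 general neuron markers, 0 of 4 astrocyte markers, 1 of 4 oligodendrocyte markers (Mag), 1 of 3 endothelial markers (Vwf) and 2 of 4 microglial and leukocyte markers (Cd14 and Cx3cr1).

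Mitochondria keep their own ribosome, which translates the few proteins still encoded in mitochondrial DNA, all of them core subunits of the respiratory chain and ATP synthase. Its small subunit binds and decodes the messenger RNA, and its large subunit joins the amino acids and passes the chain out through an exit tunnel toward the inner membrane. Every protein of both subunits is encoded in the nucleus, made in the cytosol and imported, so these transcripts are read with nuclear genes. Neurons depend strongly on respiration, and human mutations in several of these genes cause mitochondrial disease.

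The probes of 4 members are shown because the tested differences below rest on them. Mrpl23 and Mrps21l were the members that passed the threshold, Mrps21 shares a name stem with Mrps21l, and Mrps22 had the most negative difference of the small members on the slide that held both treatments. In the rat build rn4 the Mrpl23 probe lies at chr1:202787622-202787681 on the plus strand, the Mrps21l probe at chr18:76893125-76893184 on the plus strand, and the Mrps21 probe at chr2:190646260-190646319 on the minus strand. The files give no position for the Mrps22 probe, and no gene models of rn4 were used, so exon and UTR are not stated. Capitals mark an 18-base stretch that occurs at 2 places within the Mrps21l probe. A repeat of at least 18 bases is held by 31 of the 13542 tested probes (0.229%). The longest run that the Mrps21l and Mrps21 probes share in the same orientation is 4 bases. Only the probes were compared, so whether the Mrps21l probe also reads the Mrps21 transcript was not tested.
Mrpl23 probe: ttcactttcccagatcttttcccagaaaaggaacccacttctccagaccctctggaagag
Mrps21l probe: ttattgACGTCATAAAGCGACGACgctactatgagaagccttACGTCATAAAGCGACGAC
Mrps21 probe: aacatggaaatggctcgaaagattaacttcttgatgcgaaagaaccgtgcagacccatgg
Mrps22 probe: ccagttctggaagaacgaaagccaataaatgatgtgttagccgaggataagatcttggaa

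Promoters were taken from RefSeq on the build GRCr8, which gives a window of 300 bases (250 before the start and 50 after it) for 55 of the 70 members. As 2 of them, Mrpl14 and Mrps21, have 2 windows each, there were 57 windows, and shares are of windows in both the members and the protein-coding genes. Motifs were searched on both strands. The ETS motif CCGGAAG was in 18 of the 57 windows, against 2346 of 21851 protein-coding promoters. The YY1 motif AANATGGCG was in 12 windows (21.1%), against 3.67% of those promoters, and CGCNTGCGC, a core of the NRF1 motif, in 11 windows (19.3%), against 7.62%. This core is a shortened form chosen after the values of a longer one had been seen. The longer form, the core with a further G before it, was in 8 of 57 windows, against 1238 of 21851 protein-coding promoters (5.67%), and it is not in the Mrpl34 window. CCAAT was in 43.9% against 38.0%, the E-box CACGTG in 10.5% against 7.02%, and TATAAA in 8 of 57 windows against 2843 of 21851 promoters. None of these motifs contains another in full, and in 0 of the 57 windows did an ETS match share letters with a YY1 match. The median GC content was 55.7% in the members and 55.0% in protein-coding promoters. The ETS motif was in 29.4% of Mrpl and 34.8% of Mrps windows, and the YY1 motif in 20.6% and 21.7%. A match is a description of the letters and not a binding site. Shown are the 150 bases before the start of Mrpl23 and Mrpl34, the members with the largest positive differences, and of Mrps18b and Mrps18a, chosen as examples that hold motifs, with every motif found in capitals. Mrpl23 (chr1:207116780-207116929, plus strand) holds 1 ETS motif, Mrpl34 (chr16:18186297-18186446, plus strand) 1 NRF1 core on the opposite strand, Mrps18b (chr20:2842856-2843005, plus strand) an E-box and NRF1 cores on both strands, and Mrps18a (chr9:22367381-22367530, minus strand) CCAAT and an ETS motif.
Mrpl23 promoter: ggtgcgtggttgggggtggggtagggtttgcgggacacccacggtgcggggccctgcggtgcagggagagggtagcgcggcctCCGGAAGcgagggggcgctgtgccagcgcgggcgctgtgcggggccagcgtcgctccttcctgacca
Mrpl34 promoter: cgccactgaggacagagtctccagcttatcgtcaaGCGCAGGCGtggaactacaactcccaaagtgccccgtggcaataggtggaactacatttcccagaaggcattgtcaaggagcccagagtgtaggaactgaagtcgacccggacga
Mrps18b promoter: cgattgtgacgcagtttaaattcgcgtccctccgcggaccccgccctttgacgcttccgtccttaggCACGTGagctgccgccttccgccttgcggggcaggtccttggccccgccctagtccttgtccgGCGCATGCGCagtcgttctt
Mrps18a promoter: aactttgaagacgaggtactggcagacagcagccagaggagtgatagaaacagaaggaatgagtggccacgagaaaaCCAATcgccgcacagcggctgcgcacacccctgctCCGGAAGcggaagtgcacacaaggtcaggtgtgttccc

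Over the 12 arrays, most members differed little between fipronil and control. Mrpl23 rose and Mrps21l fell, and the other tested members did not pass an adjusted p of 0.05. The call came from limma on log2 processed signal relative to each array's 75th percentile, with Benjamini-Hochberg adjustment over all 13542 genes. Of 68 members 1 was thus called higher, where 2.24% of all genes were, and 1 was called lower, where 2.77% of all genes were. At an unadjusted p under 0.05, 3 members were higher, all Mrpl (9.37% of all genes), and 12 were lower, 5 Mrpl and 7 Mrps (15.7% of all genes). A change of at least 1.5-fold was found for 2 members, Mrpl23 and Mrpl34, against 10.4% of all genes. The median size of a log2 difference, whatever its sign, was 0.164 for the members and 0.230 for all genes tested. In bulk RNA, fewer cells of a type and less RNA per cell cannot be told apart.

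**Figure D1:**
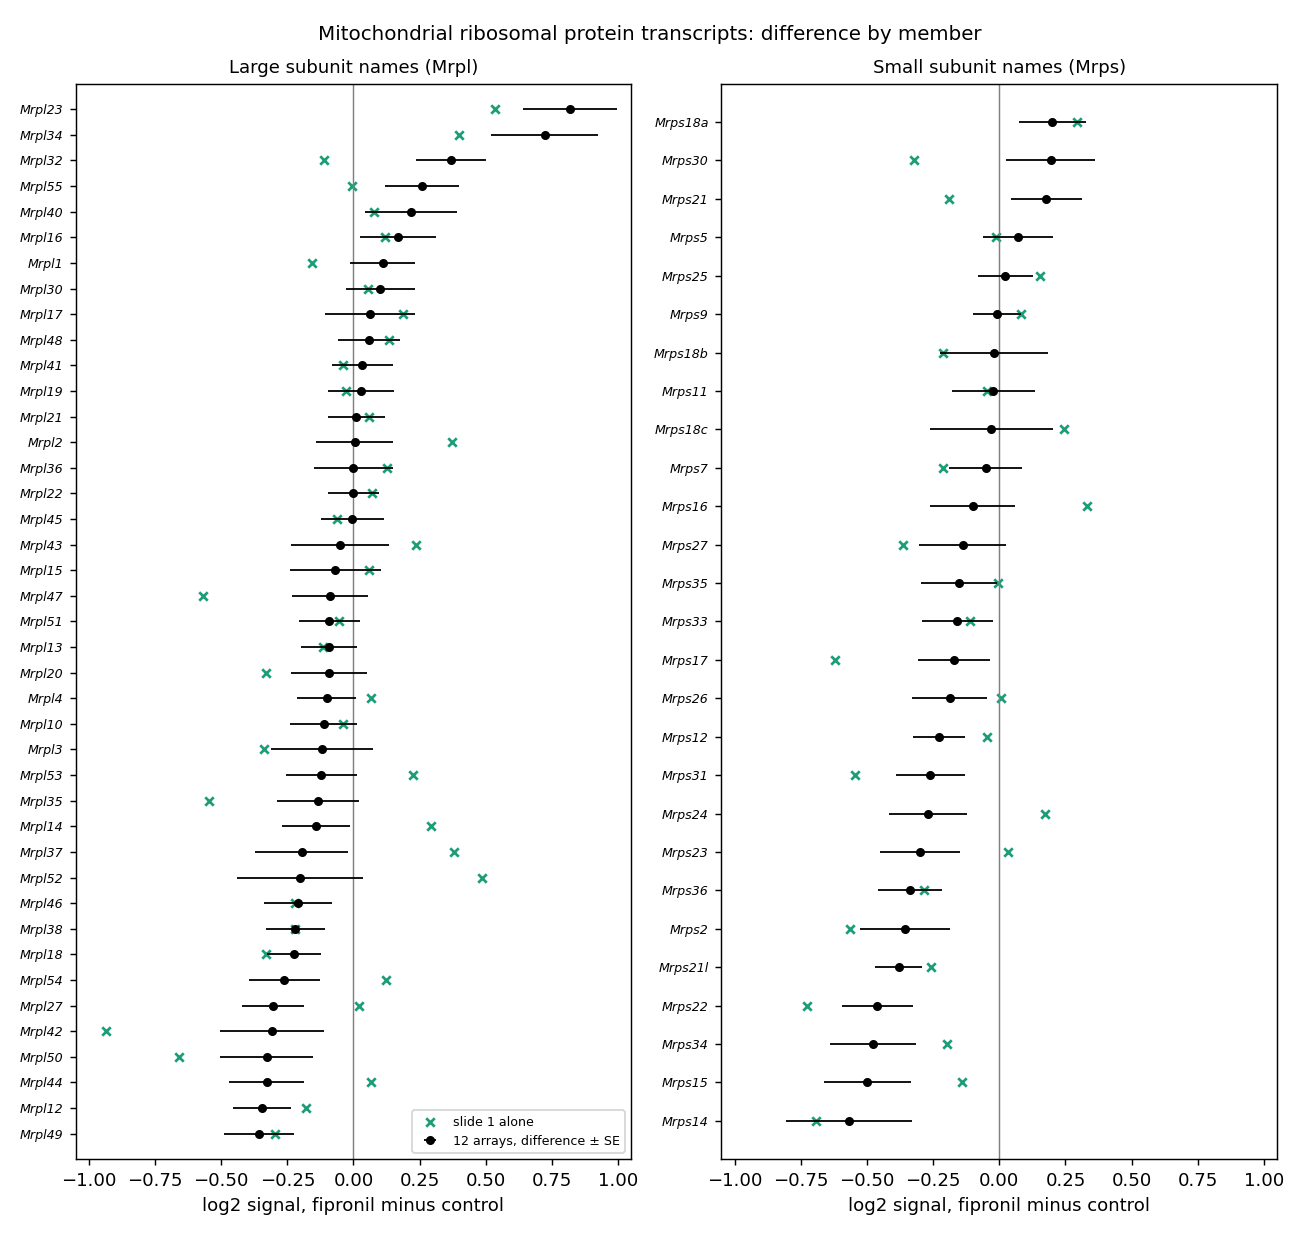
Log2 signal difference, fipronil minus control, for the 41 Mrpl members (left) and the 27 Mrps members (right), ordered by the difference over 12 arrays (black points, bars are the standard error) with the difference on slide 1 alone as green crosses. Mrpl23 (0.82) and Mrpl34 (0.72) stand at the top of the large subunit names, and Mrps14 (-0.57), Mrps15 (-0.50) and Mrps34 (-0.48) at the bottom of the small subunit names.

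The direction over the 12 arrays was lower for 49 of 68 members, 27 of 41 Mrpl and 22 of 27 Mrps, while 59.7% of all genes were lower. The median log2 difference was -0.09 for the Mrpl members, -0.16 for the Mrps members and -0.08 for all genes tested. Both counts and medians describe the set and carry no test. The calls changed when single arrays were left out. Of the fits that left out 1 array, no member was called higher without fipronil 1, 3 or 4 or control 2, 7 or 8 (0.753% to 1.34% of all genes), while 2 were without fipronil 7 (3.35% of all genes) and 3 without fipronil 8 (5.63% of all genes). No member was called lower without any 1 array other than fipronil 7 (1 member, and 3.21% of all genes) and fipronil 8 (4 members, and 9.3% of all genes). In the fits that called no member lower, 0.93% to 1.67% of all genes were called lower.

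Among the large subunit proteins, Mrpl23 is the counterpart of the bacterial ribosomal protein L23, which sits at the mouth of the exit tunnel. Its log2 level was 2.55, 2.42, 2.89 and 2.58 on the fipronil arrays of slide 3 and 1.78 and 1.99 on fipronil 7 and 8, against 1.30 and 1.40 on control 2 and 3 and 1.74, 1.76, 1.61 and 1.49 on the controls of slide 2. Every fipronil array was above every control array, narrowly between fipronil 7 and control 6. The difference was 0.82 ± 0.18 (SE), or 1.76-fold, with an adjusted p of 0.0252 by limma. Without overlap over the 12 arrays, 1 member was higher, against 1.63% of all genes. The difference was 0.53 on slide 1 and 0.96 between slides 3 and 2, and with slide as a fixed block the adjusted p was 0.164.

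Mrpl34, the counterpart of bacterial L34 and among the smallest proteins of the large subunit, showed the same layout. Its log2 level was 1.79, 1.70, 1.98 and 1.96 on slide 3 and 0.88 and 1.20 on fipronil 7 and 8, against 0.79 and 0.50 on control 2 and 3 and 1.23, 1.14, 0.85 and 0.68 on slide 2. The groups overlapped over the 12 arrays but not within slide 1 and not between slides 3 and 2. The difference was 0.72 ± 0.20 (SE), 1.65-fold, with an adjusted p of 0.0543 by limma, so it did not pass. It was 0.40 within slide 1 and 0.88 between slides 3 and 2. Mrpl23 and Mrpl34 were the 2 members that lay higher without overlap both within slide 1 and across the other slides, as 2.71% of all genes did. For Mrpl23 this follows from the lack of overlap over the 12 arrays.

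Mrpl32, whose protein is matured by a protease of the inner membrane in yeast and mouse, had log2 levels of 1.84, 1.88, 1.87 and 2.08 on slide 3 and 1.61 and 1.51 on fipronil 7 and 8, against 1.56 and 1.79 on control 2 and 3 and 1.35, 1.18, 1.39 and 1.32 on slide 2. The fipronil arrays of slide 3 were high, and those of slide 1 lay among the controls. The difference over 12 arrays was 0.37 ± 0.13 (SE, adjusted p 0.109 by limma), made of -0.11 on slide 1 and 0.61 between slides 3 and 2. Mrpl55, found in animals and not in bacteria, differed by 0.26 (adjusted p 0.271), with 0.39 between slides 3 and 2 and no positive difference on slide 1.

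The large members with the most negative differences were Mrpl49, Mrpl12, Mrpl44 and Mrpl50, and none of them passed. Mrpl12 forms the flexible stalk that contacts translation factors. Its log2 level was 2.82, 2.94, 2.72, 2.63, 2.78 and 3.08 on fipronil 1, 2, 3, 4, 7 and 8, against 3.22, 2.99, 3.27, 3.28, 3.23 and 3.04 on control 2, 3, 5, 6, 7 and 8. Fipronil 8 overlapped the controls and the other 5 fipronil arrays lay below them. The difference was -0.35 ± 0.11 (SE, adjusted p 0.0742) and -0.18 on slide 1. Mrpl49 differed by -0.36 (adjusted p 0.122, -0.30 on slide 1) and Mrpl50 by -0.33 (adjusted p 0.263, -0.66 on slide 1). Mrpl44, which has a ribonuclease III-like fold, differed by -0.33 (adjusted p 0.175), with 0.07 on slide 1 and -0.53 between slides 3 and 2.

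Among the small subunit names, Mrps21l fell. Its name marks a gene like Mrps21, a counterpart of bacterial S21. The log2 level was 0.18, 0.07, 0.21, 0.26, 0.22 and 0.35 on fipronil 1, 2, 3, 4, 7 and 8, against 0.55, 0.53, 0.54, 0.67, 0.67 and 0.62 on control 2, 3, 5, 6, 7 and 8. The highest fipronil array lay below the lowest control array. The difference was -0.38 ± 0.09 (SE), 1.30-fold lower, with an adjusted p of 0.0322 by limma. It was -0.26 on slide 1 and -0.44 between slides 3 and 2, and with slide as a fixed block the adjusted p was 0.335. Mrps21l was the 1 member lower without overlap over the 12 arrays (2.55% of all genes). This entails no overlap within slide 1 and within slides 2 and 3, where no other member was lower in both (3.67% of all genes). Mrps21 itself, read by the probe shown above, differed by 0.18 ± 0.13 (SE, adjusted p 0.427), made of -0.19 within slide 1 and 0.36 between slides 3 and 2.

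Mrps22, a protein of the mitochondrial small subunit with no bacterial counterpart, had log2 levels of -1.24, -1.41, -1.85, -1.21, -1.81 and -1.69 on fipronil 1, 2, 3, 4, 7 and 8, against -1.03, -1.01, -1.13, -0.97, -1.24 and -1.06 on control 2, 3, 5, 6, 7 and 8. Fipronil 1 and 4 lay beside the lowest control, and the other 4 fipronil arrays lay below all controls. The difference was -0.46 ± 0.13 (SE, adjusted p 0.0598 by limma). With arrays scaled to their median in place of the 75th percentile, Mrps22 passed (-0.56, adjusted p 0.0419 by limma) and Mrps21l did not. On slide 1 it was -0.73, with an unadjusted p of 0.00512 and an adjusted p of 0.131 when slide was a fixed block.

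Mrps15, the counterpart of bacterial S15, which binds the small ribosomal RNA, had log2 levels of -0.26, 0.09, 0.30, 0.52, 0.35 and 0.84 on fipronil 1, 2, 3, 4, 7 and 8, against 0.72, 0.75, 1.09, 0.89, 0.75 and 0.64 on control 2, 3, 5, 6, 7 and 8. Fipronil 8 lay within the control range and the other fipronil arrays below it. The difference was -0.50 ± 0.17 (SE, adjusted p 0.0873), and -0.14 on slide 1. Mrps34, a protein particular to mitochondrial ribosomes in which human mutations cause Leigh syndrome, differed by -0.48 ± 0.16 (SE, adjusted p 0.0958), and by -0.20 on slide 1. Mrps14 was well above background on 5 fipronil and 6 control arrays and had the most negative difference of the small members, -0.57 ± 0.24 (SE, adjusted p 0.163), with fipronil 3 far below the others at -3.62. Neither Mrps15, Mrps34 nor Mrps14 passed.

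**Figure D2:**
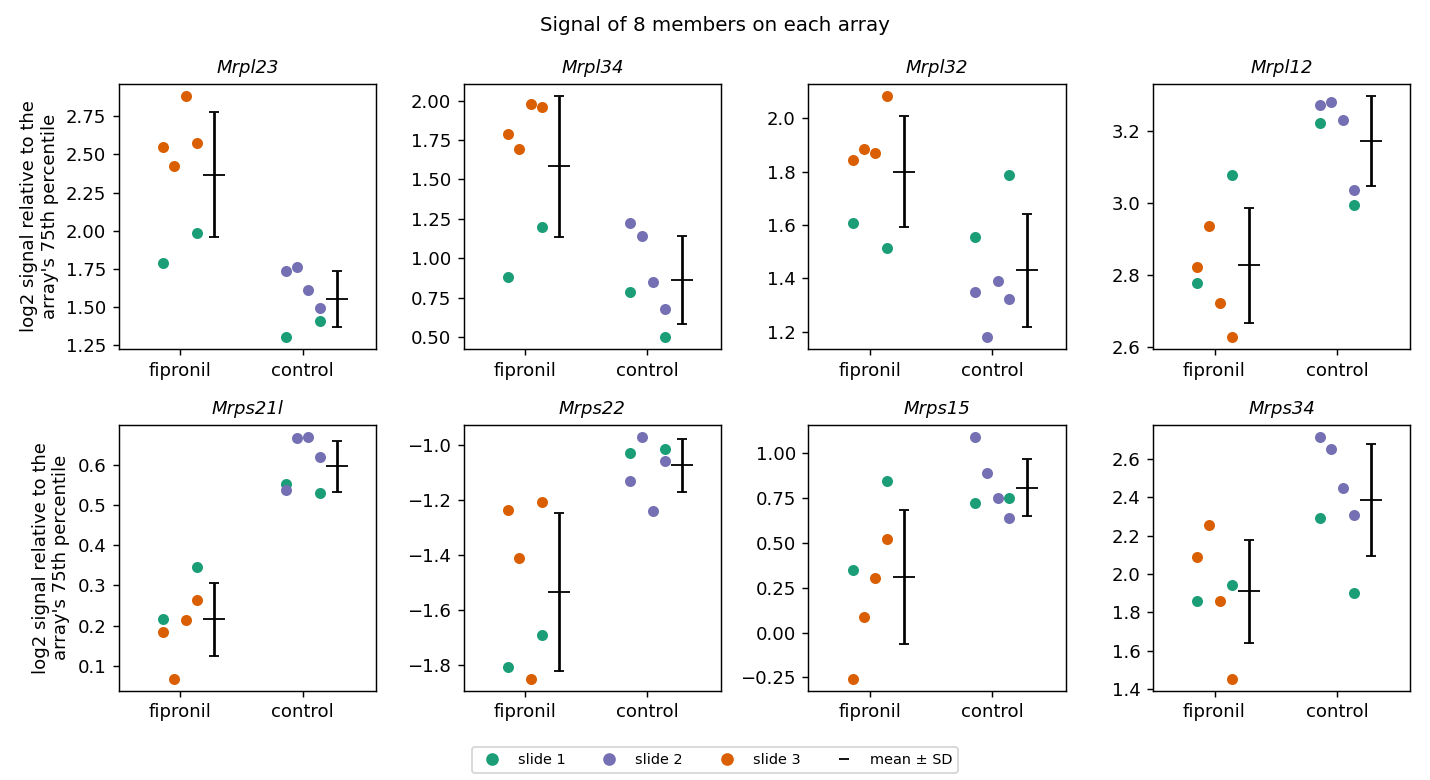
Log2 signal relative to the array's 75th percentile for 8 members, with fipronil arrays left of control arrays, points coloured by slide and the mean ± SD of 6 arrays as a black bar. Mrpl23 and Mrps21l show no overlap between the groups, and for Mrpl23 and Mrpl34 the 2 fipronil arrays of slide 1 lie below the 4 of slide 3.

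Slide 1 was the only slide with both treatments. With slide as a fixed block, limma takes the difference from slide 1 and the spread from all arrays. It called no member in either direction, where 0.0591% of all genes were called higher and 0.0295% lower. At an unadjusted p under 0.05 it gave 1 member higher, Mrpl23 (8.58% of all genes), and 7 lower, 4 Mrpl and 3 Mrps (10.5% of all genes). Between 2 fipronil and 2 control arrays, 12 members were higher without overlap, 8 Mrpl and 4 Mrps (25.2% of all genes), and 19 were lower, 9 Mrpl and 10 Mrps (28.5% of all genes). The difference on slide 1 was below 0 for 39 of 68 members, against 51.6% of all genes.

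The most negative slide 1 difference was that of Mrpl42, at -0.93 (unadjusted p 0.00628, adjusted p 0.136). Its log2 level was -1.10 and -1.14 on fipronil 7 and 8, against -0.09 and -0.28 on control 2 and 3. Across slides 2 and 3 its difference was near 0. Mrps17, the counterpart of bacterial S17, was 0.51 and 0.79 on fipronil 7 and 8, against 1.32 and 1.22 on control 2 and 3, a difference of -0.62 (unadjusted p 0.00477, adjusted p 0.128), with 0.05 between slides 3 and 2. Mrpl47, the counterpart of bacterial L29, differed by -0.57 on slide 1 and 0.15 between slides 3 and 2. For Mrpl35 the values were -0.55 and 0.07, for Mrps31 -0.55 and -0.12, and for Mrps2 -0.57 and -0.25. None of these members passed in either fit.

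Several positive slide 1 differences had the opposite sign across the other slides. Mrpl37 differed by 0.38 on slide 1 and -0.48 between slides 3 and 2, and Mrpl2, whose bacterial counterpart lies near the catalytic centre, by 0.37 and -0.18. Mrps16 differed by 0.33 and -0.32, Mrps18c by 0.25 and -0.17, and Mrps24 by 0.17 and -0.49. Mrpl14, named after its values were seen, was without overlap in both comparisons and in opposite directions, at 0.29 on slide 1 and -0.36 between slides 3 and 2. The reverse held for Mrps30, at -0.32 and 0.45, and for Mrps21. What share of all genes had no overlap in opposite directions was not counted. On slide 1 alone, 25.2% of all genes were higher and 28.5% lower without overlap. The sign was the same in both comparisons for 30 of 68 members (44.1%), 16 of 41 Mrpl and 14 of 27 Mrps, and for 43.8% of all genes tested.

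**Figure D3:**
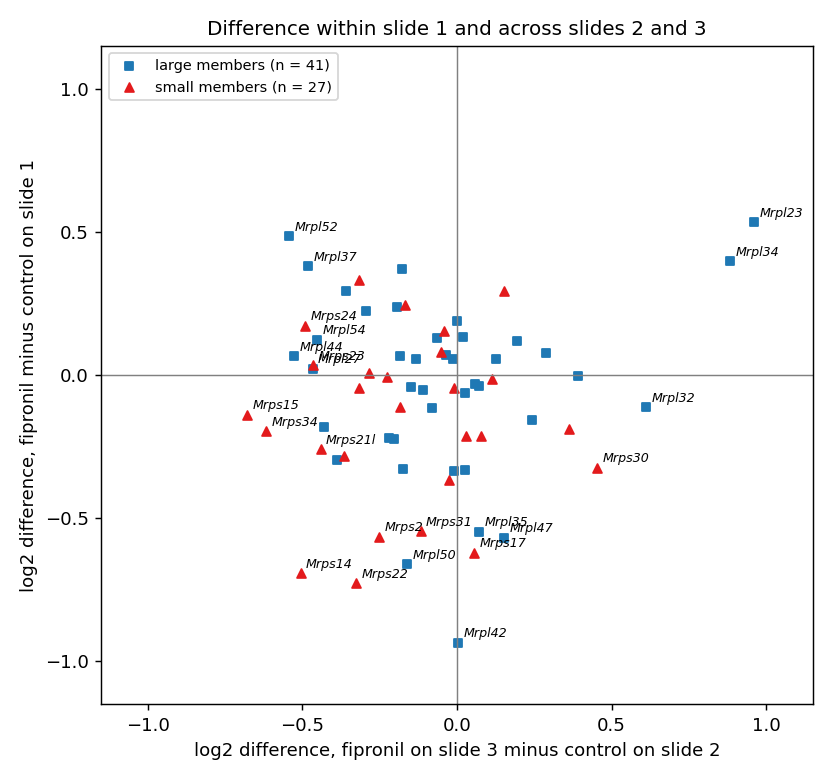
Log2 difference of each tested member on slide 1 (vertical axis) against the log2 difference of fipronil on slide 3 minus control on slide 2 (horizontal axis), with 41 Mrpl members as blue squares and 27 Mrps members as red triangles. Mrpl23 and Mrpl34 stand apart at the upper right, and 30 of 68 members lie in the quadrants where both differences have the same sign.

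The subunit classes were compared as a description. Over the 12 arrays the median log2 difference of the Mrpl members exceeded that of the Mrps members by 0.07, and on slide 1 by 0.16, from 0.02 for Mrpl and -0.14 for Mrps beside -0.02 for all genes tested. Without fipronil 7, slide 1 gave 0.07 for Mrpl and 0.08 for Mrps, so their difference was -0.01. Across slides 2 and 3 the medians were -0.06 for Mrpl, -0.18 for Mrps and -0.10 for all genes. Each array was also summarised as its mean log2 level over Mrpl minus that over Mrps members, relative to the control mean. This measure was 0.19, 0.18, 0.16, 0.02, 0.12 and 0.11 on fipronil 1, 2, 3, 4, 7 and 8, and it lay between -0.03 and 0.08 on the control arrays. The fipronil arrays other than fipronil 4 lay above all controls, and fipronil 4 lay below control 5. The group means were 0.13 ± 0.06 (SD, n = 6) for fipronil and 0.00 ± 0.04 (SD, n = 6) for control, where 0 is set by construction. No test was made of this score over the members. Placing Mrps30 and Mrps18a with the large subunit, where their proteins sit, gave a 12-array class difference of 0.08.

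**Figure D4:**
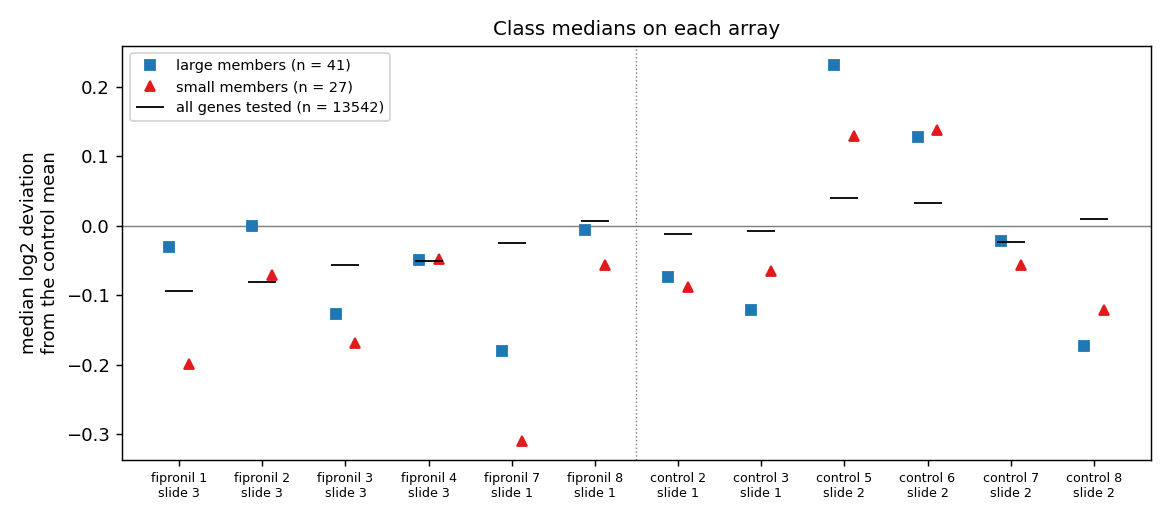
Median log2 deviation from the control mean on each of the 12 arrays for the 41 Mrpl members (blue squares), the 27 Mrps members (red triangles) and all 13542 genes tested (black dashes), with fipronil arrays left of the dotted line and control arrays right of it. The Mrps median lies lowest on fipronil 7 and the Mrpl median lies highest on control 5.

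The brightest probes of each class showed small differences. Of Mrpl10, which anchors the stalk that Mrpl12 forms, the log2 difference was -0.11 (adjusted p 0.607), of Mrpl13 -0.09 (0.620) and of Mrpl37 -0.19 (0.515). Of Mrps26 it was -0.19 (0.432), of Mrps21 0.18 (0.427) and of Mrps25 0.02 (0.911), all adjusted p-values from limma. Brightness orders probes and not transcript levels. Dim members were few. Mrpl43 was well above background on 2 fipronil and 6 control arrays, and Mrpl52 on 3 and 6. Both passed the filter through the control arrays, and most fipronil values behind their differences of -0.05 and -0.20 were not well above background. Their neighbours outside the filter, Mrps10 and Mrps28, stood above background on 0. The Mrps-named members of the large subunit, Mrps18a and Mrps30, differed by 0.20 (adjusted p 0.342) and 0.19 (adjusted p 0.494). Mrps5, the counterpart of bacterial S5 in the decoding region, differed by 0.07 (adjusted p 0.775).

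For 11 members more than 1 probe passed the filter, and the brightest probe was used. In 5 of the 11 the kept probes differed in sign. In all of the 11 but Mrps36 and Mrpl17, the dimmer kept probes had lower differences than the probe used, and the cause was not tested. The probe used for Mrps21 differed by 0.18, while a dim probe of the same strand, well above background on 2 fipronil and 6 control arrays, differed by -1.33 (probe-level adjusted p 0.0539). For Mrpl40 the probe used differed by 0.22 and the others by -0.17 and -0.71. The last was a dim probe, well above background on 3 fipronil and 6 control arrays (probe-level adjusted p 0.0312 by limma). This probe and the dim Mrps21 probe passed the filter through the control arrays, and many of their fipronil values were not well above background. Their p-values are therefore not read as calls. For Mrpl30 the kept probes ranged between -0.33 and 0.10. The Mrps11 probes differed by -0.02 and -0.49, those of Mrpl36 by 0.00 and -0.42, those of Mrps27 by -0.14 and -0.49, and those of Mrps36 by -0.34 and -0.16. The probes of Mrpl1, at 0.11 and -0.11, and of Mrpl41, at 0.03 and -0.01, lay near 0, as did those of Mrpl45 and Mrpl17. Mrps21 and Mrps33 also had a probe on the opposite strand, well above background on 2 and 0 arrays. Mrpl23, Mrpl34, Mrps21l and Mrps22 had 1 probe each, so no other probe bears on them.

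**Figure D5:**
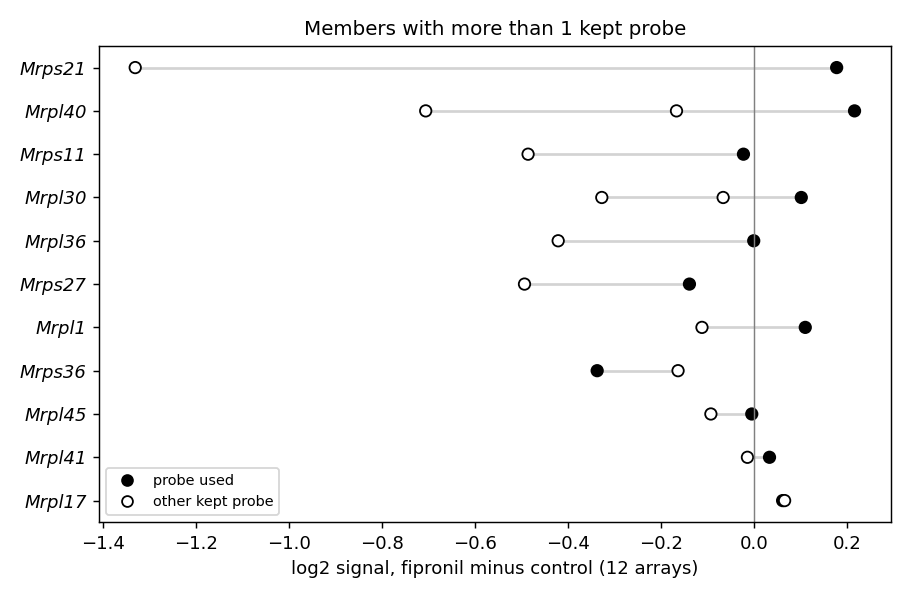
Log2 signal difference over 12 arrays, fipronil minus control, for each kept probe of the 11 members with more than 1 such probe, where filled circles are the probe used and open circles the others. The widest gap is that of Mrps21, between -1.33 and 0.18.

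Some proteins of the mitochondrial ribosome carry other names in the files, and 10 such transcripts were tested, among them mrpl9, mrpl11 and mrpl24 in lower case and Mrpl28, Mrpl33 and Mrpl39 under transcript numbers. By limma 0 of the 10 passed and 3 had an unadjusted p under 0.05, with differences between -0.39 and 0.19, 9 of them below 0. Over all genes, 2.24% passed higher and 2.77% lower, 9.37% were higher and 15.7% lower at an unadjusted p under 0.05, and 59.7% were below 0. Another list held 6 mitochondrial ribosome proteins named for other functions. Of these 0 passed by limma, 2 had an unadjusted p under 0.05, and the median difference was -0.06. Dap3, a GTP-binding protein of the small subunit, differed by -0.61 ± 0.18 (SE, adjusted p 0.0603) and by -0.14 within slide 1. Aurkaip1, a small subunit protein, differed by 0.48 ± 0.16 (SE, adjusted p 0.0908) and by 0.22 within slide 1.

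Genes that build or serve the ribosome were read beside it. Of 27 tested assembly factors, 1 rose and 1 fell, where 2.24% of all genes rose and 2.77% fell. The median was -0.23 over 12 arrays and 0.14 on slide 1, beside -0.08 and -0.02 for all genes, and 21 of the 27 were below 0. Of the 27, 8 were well above background on fewer fipronil than control arrays. Malsu1, which binds the large subunit and keeps the subunits from joining too early, averaged 3.23 ± 0.47 with fipronil and 2.41 ± 0.11 in control (SD, n = 6 each). It rose by 0.81 ± 0.19 (SE, adjusted p 0.0310 by limma), with 0.25 on slide 1. Nsun4, which methylates the small subunit RNA, averaged -0.73 ± 0.24 with fipronil and -0.25 ± 0.14 in control (SD, n = 6 each), a difference of -0.49 ± 0.13 (SE, adjusted p 0.0450), with -0.16 on slide 1. Of 15 tested translation factors 1 rose and 0 fell by limma, and the median was -0.03. An unadjusted p under 0.05 was found for 3, and 8 were below 0. Over all genes, 9.37% were higher and 15.7% lower at that p, and 59.7% were below 0. Of the 15, 3 were well above background on fewer fipronil than control arrays. Mtres1, which helps to rescue stalled mitochondrial ribosomes in human cells, averaged -0.28 ± 0.33 with fipronil and -1.18 ± 0.17 in control (SD, n = 6 each). Its difference was 0.90 ± 0.15 (SE, adjusted p 0.0126), without overlap, and 0.68 on slide 1. With slide as a fixed block the adjusted p was 0.375 for Malsu1, 0.666 for Nsun4 and 0.116 for Mtres1.

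The differences of members with and without a promoter motif are given as a description. The median over 12 arrays was -0.09 with the ETS motif (17 members tested) and -0.10 without it (37), 0.00 with the NRF1 core (11) and -0.10 without it (43), and -0.01 with its longer form (8) and -0.10 without that (46). A member counts as holding a motif if any of its windows does. The 12-array median was -0.19 with the YY1 motif (11) and -0.09 without it (43), and -0.16 with TATAAA (8) and -0.09 without it (46). On slide 1 the medians with and without were -0.22 and -0.01 for YY1, and -0.27 and 0.00 for TATAAA. They were 0.06 and -0.05 for ETS, 0.06 and -0.04 for the NRF1 core, -0.04 and -0.04 for CCAAT, and 0.09 and -0.05 for the E-box. The 70 members are spread over 18 chromosomes, with 12 on chromosome 1 and 10 on chromosome 10. A start on the opposite strand lay within 250 bases, head to head, for 13 of 57 windows (22.8%), each of another member, against 6.07% of protein-coding promoters. Mrps11 and Mrpl46 are such neighbours of each other, with 234 bases between their starts, and differed by -0.02 and -0.21. Mrpl32 lies 210 bases from Psma2, a proteasome subunit gene, which differed by -0.35 (adjusted p 0.160) while Mrpl32 differed by 0.37. Mrpl47 lies 244 bases from Ndufb5, a complex I subunit gene, with differences of -0.09 for Mrpl47 and 0.08 for Ndufb5. Mrpl49 lies 186 bases from Fau, which encodes a cytosolic ribosomal protein, and the differences were -0.36 for Mrpl49 and -0.24 for Fau. Other neighbours had larger differences, -0.84 for Mitd1 beside Mrpl30 (0.10) and -0.70 for Eme1 beside Mrpl27 (-0.30). Helq differed by -0.72 (adjusted p 0.0543 by limma) beside Mrps18c (-0.03). None of these genes passed the threshold.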

How the data were processed

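Total RNA of 12 N27 samples was read on one-colour Agilent arrays. Spots were quantified by the authors in Agilent Feature Extraction, whose version was 10.7 according to the submitters' processing notes. The deposited processed signal is an intensity from which background and spatial trend were removed and which was not scaled between arrays, per the file headers. The mean signal and local background are raw intensity values, and the flags are other values (0 or 1), also per the file headers. A deposited series table of log2 values, quantile-normalized by the authors, served as an alternative. Groups came from titles and treatment labels.

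Here the log2 processed signal minus each array's 75th percentile was used. Control spots and outlier spots were left out, spots of a probe were averaged, and a probe was kept if well above background on at least 6 of 12 arrays (16291 of 45598 probes, 81 of the 90 member probes). The brightest kept probe stood for a gene. Differences, fipronil minus control, were tested with limma 3.58.1 in R 4.3.3, two-sided, with Benjamini-Hochberg adjustment over 13542 genes and a threshold of 0.05. Adjusted p-values in the text are from these fits. The procedure was also run on simulated arrays, which held no slide effect and so cannot show how slide bears on the calls. Fits that block on slide, and the alternatives of the closing section, followed. Members named were those past the threshold, and the 4 largest differences each way per class over 12 arrays and on slide 1. These largest differences were taken among members well above background on all 12 arrays. Also named were the 3 brightest per class, those near the filter, the Mrps-named large subunit proteins, and those with several probes. The members and lists were chosen with earlier results of these data known. Signal over background limits the dim probes.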

Additional observations from a re-analysis of the deposited data

Results flagged for a closer look

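For 94 groups of 6 arrays (the members chosen by the naming rule and 3 class summaries, each on the fipronil and on the control arrays), an array was listed when its gap to the nearest of the others was large against the range of its group. This gave 5 cases, and chance gives such a case in about 1 in 20 groups. Mrps18c was low on fipronil 4, at 1.18, with the other fipronil arrays between 2.12 and 2.60. Mrpl52 was also low on fipronil 4, at -4.79, with the others between -3.77 and -3.35. Mrps14 was low on fipronil 3, at -3.62, with the others between -2.50 and -1.94. Mrps2 was low on control 8, at -2.82, with the other controls between -2.41 and -2.23. The mean over Mrpl minus the mean over Mrps members was high on control 5, at 0.077, with the other controls between -0.034 and 0.00077.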

How the results depend on the processing

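The counts of members called, 1 higher and 1 lower over 12 arrays, changed with most settings. Quantile normalization and the deposited table each gave 2 higher (2.67% of all genes in each). The lower count was as before (2.57% and 2.6% of all genes). With a normexp background and quantile normalization, 3 were higher and 3 lower, where 3.58% and 3.89% of all genes were. With that background and 75th percentile scaling, 7 were higher and 15 lower. There all genes had a median of 0.17, against -0.08 before, and 37.8% were called higher and 12.3% lower. That setting turned 9 named members upward and 7 downward. Of these 4 passed the threshold, all upward, Mrps2 to 0.35, Mrpl43 to 0.64, Mrpl52 to 0.55 and Mrps27 to 0.46, and the cause was not tested. Scaling to the median put the median of all genes at -0.18 and called Mrps22 lower in place of Mrps21l (3.21% of all genes). Requiring signal on all 12 arrays gave 2 and 2, where 4.16% of all genes were called higher and 4.94% lower. No filter gave 2 and 4 among the same 68 members. The median over all genes was then 0.55, and 41.7% of them were called higher and 3.39% lower. No member was called in either direction (0 and 0) with slide as a fixed or random block. Of all genes, the fixed block called 0.0591% higher and 0.0295% lower, and the random block 0.0665% and 0.0886%. Slides 2 and 3 alone gave 3 and 7, where 9.59% of all genes were called higher and 12.9% lower. Leaving out 1 array gave 0 to 3 higher and 0 to 4 lower, where 0.753% to 5.63% and 0.93% to 9.3% of all genes were. The calls with slide as a fixed block stayed at 0 in each of these fits.

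Same-numbered fipronil and control arrays lie on different slides, and their deviations correlated at 0.43, 0.08, -0.11 and -0.31 for numbers 2, 3, 7 and 8. Because slide differs within each pair, these values cannot tell whether same-numbered samples are paired, and the labels do not say. With the replicate number as a block, 0 members were called in either direction, as were 0 of all 13542 genes. In that fit the Mrpl median was 0.063, and the class difference was 0.12. The class difference of 0.07 was 0.13 with the mean of a gene's kept probes, 0.16 in the fit that blocks on slide, and 0.056 to 0.127 without 1 array. Mrpl23 kept its sign in all 24 settings and passed in 15, with adjusted p between 0.00346 and 0.217. Mrps21l kept its sign in all 24 and passed in 10, with adjusted p between 0.00205 and 0.335. Without Mrps21l, an alternative chosen after seeing the data, the Mrps median was -0.16.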
